A study of Mus musculus with 8 samples.

Results

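The genes described here are 10 genes of the tight junction: the claudins Cldn1, Cldn2, Cldn3, Cldn4, Cldn7, Cldn8, Cldn15 and Cldn23, the scaffold gene Tjp1 and the occludin gene Ocln. They were chosen by name, and each is read by 1 probe set that names no other gene, so that all 10 were found among the 19938 genes measured. The RNA came from epithelial cells of male mice, 8 weeks old and of the outbred ICR stock. Their small intestine had been transfected in the living animal, and the cells were taken 4 days later. In the siRNA arm, 3 arrays labelled siYAP/TAZ (siRNAs against both Yap1 and Wwtr1, the gene of TAZ) stand against 3 arrays labelled siGFP (an siRNA against a jellyfish protein). In the shRNA arm, 1 array labelled shYAP/TAZ (plasmids for shRNAs against both genes) stands against 1 array labelled shLacZ (a plasmid for an shRNA against a bacterial enzyme). The labels name a control array for each knockdown array, which gives 3 siRNA pairs and 1 shRNA pair, but do not say what the arrays of a pair share. The labels do not say whether the arrays of a group come from separate mice, so any p-value covers only array-to-array spread, and that may be technical. They also do not say what share of the epithelial cells took up the nucleic acids.

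Tight junctions seal the space between neighbouring epithelial cells near their apical side. Claudins are 4-pass membrane proteins that meet across that space: some close it, and others form pores for ions and water. Occludin lies in the same strands, and ZO-1, the product of Tjp1, ties the strands to the actin cytoskeleton. In the intestine, claudins differ along the axis from crypt to villus and along the length of the gut, and YAP and TAZ are coactivators of the Hippo pathway that reach DNA through TEAD factors.

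Array by array, the median deposited intensity lay between 76.4 and 95.5. Pearson's r over the 19938 genes, which are not independent replicates, lay between 0.765 and 0.963. Neither targeted gene passed the test, and Wwtr1 lay under the background level described below on all 8 arrays, so its values cannot show a knockdown either way. Yap1 averaged 7.22 ± 0.38 in the siYAP/TAZ arrays and 7.33 ± 0.27 in the siGFP arrays (log2 intensity, SD, n = 3 each), and Wwtr1 averaged 5.74 ± 0.18 in the siYAP/TAZ arrays and 6.02 ± 0.59 in the siGFP arrays (SD, n = 3 each). The log2 differences were -0.12 and -0.28 (limma, adjusted p = 1.00 for both), so the groups are called by their labels and no direction below can be tied to a measured loss of the targets. Marker levels also differed between the isolates. The mean log2 level of 9 mitotic genes was 8.55, 5.84 and 5.63 on siYAP/TAZ arrays 1, 2 and 3, against 8.30, 7.70 and 5.60 on siGFP arrays 1, 2 and 3. That of 9 B and plasma cell markers ranged over 5.04 to 7.97 in the siYAP/TAZ arrays and 4.99 to 5.58 in the siGFP arrays. In such bulk samples, fewer cells of a type and less RNA per cell cannot be told apart.

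Promoter windows were available for 8 of the 10 genes, from RefSeq on GRCm38.p6, as 250 bases before and 50 after a transcription start. The 3 shown belong to the genes whose levels carry the results below. Cldn2 and Cldn4 varied most from array to array. Cldn4 and Ocln had the most negative log2 differences of siYAP/TAZ against siGFP among the 10 genes, though neither passed the test. The windows lie at chrX:139800558-139800857 on the plus strand (Cldn2), chr5:134946885-134947184 on the minus strand (Cldn4) and chr13:100552669-100552968 on the minus strand (Ocln, the first of 2 listed starts). Capitals mark matches, on either strand, to 5 motifs.
Cldn2: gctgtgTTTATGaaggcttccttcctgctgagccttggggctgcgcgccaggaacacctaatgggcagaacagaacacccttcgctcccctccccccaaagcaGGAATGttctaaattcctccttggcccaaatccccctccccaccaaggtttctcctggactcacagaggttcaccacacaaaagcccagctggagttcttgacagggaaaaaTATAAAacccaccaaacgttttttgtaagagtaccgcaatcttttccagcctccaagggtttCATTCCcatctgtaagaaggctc
Cldn4: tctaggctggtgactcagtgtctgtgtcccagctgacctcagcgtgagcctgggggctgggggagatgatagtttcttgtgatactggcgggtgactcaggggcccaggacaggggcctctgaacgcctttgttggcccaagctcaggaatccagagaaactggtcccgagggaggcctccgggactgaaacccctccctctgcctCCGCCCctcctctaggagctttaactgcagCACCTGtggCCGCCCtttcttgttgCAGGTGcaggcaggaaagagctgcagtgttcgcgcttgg
Ocln: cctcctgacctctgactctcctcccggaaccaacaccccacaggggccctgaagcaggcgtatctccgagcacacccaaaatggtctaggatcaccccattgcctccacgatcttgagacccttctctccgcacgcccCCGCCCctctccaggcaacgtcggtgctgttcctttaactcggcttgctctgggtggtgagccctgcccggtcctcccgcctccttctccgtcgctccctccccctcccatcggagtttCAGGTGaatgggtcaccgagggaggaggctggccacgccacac
The motifs were GGAATG for TEAD factors, TATAAA for the TATA box, GGGCGG for the GC box, CAGGTG for the E box bound by Snail factors and TTTATG for CDX factors. No 2 matches overlap in the windows shown. The Cldn2 window holds GGAATG at -147 and, on the other strand, at 28 from the start, TATAAA at -35 and TTTATG at -244. The Cldn4 window holds the GC box and the E box at 2 places each, and the Ocln window holds each at 1 place. Among the 8 genes, the TEAD letters are in windows of Cldn2, Cldn7 and Cldn15, and 14.7% of all 32851 windows in the table hold them. The E box letters are in 20.2% of all windows, the GC box letters in 35.7% and the TATA letters in 13.6%. A match describes letters in the window and does not show that a factor binds there.

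Levels are given as log2 intensity after quantile normalization, for comparison of a gene with itself and not between genes. The 95th percentile of 1027 olfactory receptor genes on the same array, between 6.44 and 6.96, served as background, since these receptors belong to the nose. Cldn15, Cldn3, Cldn4, Cldn7, Tjp1 and Ocln were above background on all 8 arrays, Cldn23 on 7 and Cldn2 on 6. Cldn1 and Cldn8 were above it on 0 of 8, so that their values cannot be told from background and are given for completeness. Claudins resemble each other in sequence, and shared signal between them cannot be tested in these values.

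**Figure D1:**
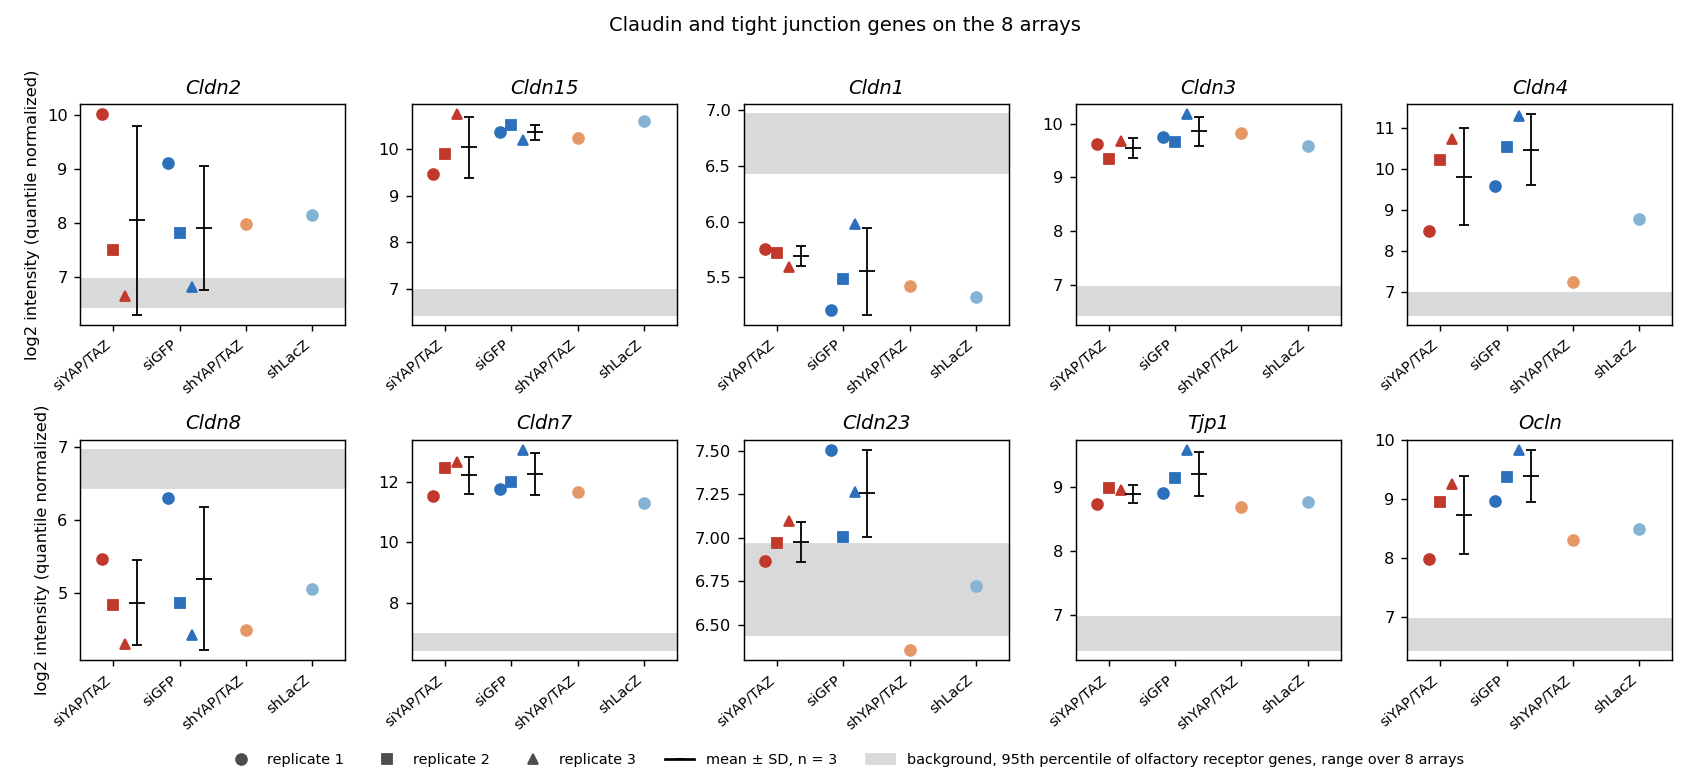
Log2 intensity of the 10 genes (vertical axis, a separate range in each panel) in the 4 groups, 1 point per array, with mean ± SD for the groups of 3 and a grey band for the background level. Cldn2 and Cldn4 spread over the widest ranges, and the siYAP/TAZ and siGFP arrays overlap in all 10 panels.

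Cldn2, which makes a channel for cations and water and is known from intestinal crypts, had 10.01, 7.49 and 6.64 in siYAP/TAZ arrays 1, 2 and 3, against 9.10, 7.81 and 6.81 in siGFP arrays 1, 2 and 3. It had 7.99 in the shYAP/TAZ array and 8.14 in the shLacZ array. Both arrays numbered 1 were high and both numbered 3 were low, under background, so the groups overlapped throughout. Because the lowest array is not above background, no fold range is given for Cldn2. Its SD over the 8 arrays was larger than that of 98% of all genes. The log2 difference of siYAP/TAZ against siGFP was 0.14 (SE 0.86, 95% confidence interval -1.81 to 2.09; limma, adjusted p = 1.00). It turned to -0.84 without siYAP/TAZ 1 and to -0.41 without siGFP 3. The siYAP/TAZ 2, siYAP/TAZ 3 and siGFP 3 arrays, where Cldn2 was lowest, were also the 3 with the lowest mitotic gene level (5.60 to 5.84, against 7.70 or more elsewhere). The part of cell makeup in the Cldn2 level was not tested.

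Cldn15, the main sodium pore of the mouse small intestine, had 9.47, 9.90 and 10.75 in siYAP/TAZ arrays 1, 2 and 3, against 10.37, 10.53 and 10.20 in siGFP arrays 1, 2 and 3. The shYAP/TAZ array had 10.23 and the shLacZ array 10.61. It did not follow Cldn2: its lowest value was in siYAP/TAZ 1, where Cldn2 was highest, and its highest in siYAP/TAZ 3, where Cldn2 was lowest. The log2 difference in the siRNA arm was -0.33 (SE 0.37, 95% confidence interval -1.17 to 0.52; limma, adjusted p = 1.00), with -0.90, -0.63 and 0.55 in siRNA pairs 1, 2 and 3 and -0.37 in the shRNA pair. Without siYAP/TAZ 1 the difference in the siRNA arm was -0.04, and without siYAP/TAZ 3 it was -0.68.

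Among the claudins that tighten the seal, Cldn4 stood apart. Cldn4 is, with Cldn3, a receptor of a Clostridium perfringens enterotoxin. It had 8.49, 10.21 and 10.74 in siYAP/TAZ arrays 1, 2 and 3, against 9.58, 10.53 and 11.30 in siGFP arrays 1, 2 and 3. It had 7.23 in the shYAP/TAZ array and 8.77 in the shLacZ array. Each knockdown array lay under its assigned control, by 1.09, 0.32 and 0.56 in the siRNA pairs and by 1.54 in the shRNA pair (log2), but the 2 siRNA groups overlapped. The siRNA difference was -0.66 (SE 0.63, 95% confidence interval -2.08 to 0.77; limma, adjusted p = 1.00; exact two-sided permutation p = 0.6), a 1.58-fold lower mean. With siYAP/TAZ 1 left out it came to 0.0050, and with siYAP/TAZ 3 left out to -1.12. In the shRNA arm, where 1 array per group allows no test, the level was 2.90-fold lower in shYAP/TAZ. The range over the 8 arrays was 16.7-fold, and 99.2% of all genes had a smaller SD. Cldn2 and Cldn4 were the 2 of the 10 genes with a log2 range of at least 2, as 12.4% of all genes had.

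Cldn3, a close relative of Cldn4, varied little, with 9.63, 9.34 and 9.68 in the siYAP/TAZ arrays 1, 2 and 3, against 9.75, 9.67 and 10.18 in the siGFP arrays 1, 2 and 3. It had 9.83 in shYAP/TAZ and 9.59 in shLacZ. Its 3 siRNA pairs were lower (-0.12, -0.33 and -0.50) and the shRNA pair higher (0.24). The siRNA difference was -0.32 (SE 0.29; limma, adjusted p = 1.00). Cldn1, which is needed for the barrier of the skin, had 5.76, 5.72 and 5.59 in the siYAP/TAZ arrays 1, 2 and 3, against 5.21, 5.48 and 5.98 in the siGFP arrays 1, 2 and 3. Cldn8, a partner of Cldn4 in the kidney, had 5.46, 4.84 and 4.31 in the siYAP/TAZ arrays 1, 2 and 3, against 6.30, 4.86 and 4.43 in the siGFP arrays 1, 2 and 3. The shRNA arm had 5.42 and 4.50 for Cldn1 and Cldn8 in shYAP/TAZ, and 5.32 and 5.06 in shLacZ. Both genes lay under background throughout, and the sign of the siRNA difference turned without siGFP 1 for each (Cldn1 0.13 with all arrays and -0.040 without it, Cldn8 -0.33 and 0.22).

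Cldn7, which binds EpCAM and lies along the sides of intestinal cells as well as in the junction, had 11.52, 12.45 and 12.64 in siYAP/TAZ arrays 1, 2 and 3, against 11.74, 11.98 and 13.04 in siGFP arrays 1, 2 and 3. It had 11.64 in shYAP/TAZ and 11.28 in shLacZ. Its 3 highest arrays, siGFP 3, siYAP/TAZ 3 and siYAP/TAZ 2, were the 3 in which Cldn2 and the mitotic genes were lowest. The siRNA difference was -0.05 (SE 0.44, 95% confidence interval -1.06 to 0.96; limma, adjusted p = 1.00), and its sign turned to 0.0063 with arrays centred on the 75th percentile. Cldn23, less studied than the others, had 6.87, 6.97 and 7.10 in siYAP/TAZ arrays 1, 2 and 3, against 7.50, 7.00 and 7.26 in siGFP arrays 1, 2 and 3. It had 6.36 in shYAP/TAZ, under background, and 6.72 in shLacZ. The siRNA difference of Cldn23 was -0.28 (SE 0.28, 95% confidence interval -0.92 to 0.37; limma, adjusted p = 1.00), and all its values lay close to background.

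Ocln and Cldn4 had the largest siRNA differences of the 10 genes. Ocln had 7.99, 8.95 and 9.26 in siYAP/TAZ arrays 1, 2 and 3, against 8.96, 9.38 and 9.84 in siGFP arrays 1, 2 and 3, and 8.30 in shYAP/TAZ against 8.49 in shLacZ. Each knockdown array again lay under its own control, by 0.98, 0.44, 0.58 and 0.19, while siYAP/TAZ 3 lay above siGFP 1. The siRNA difference was -0.66 (SE 0.41, 95% confidence interval -1.59 to 0.26; limma, adjusted p = 1.00; exact two-sided permutation p = 0.2), a 1.58-fold lower mean, and it was -0.29 without siYAP/TAZ 1. Tjp1 had 8.74, 8.99 and 8.96 in siYAP/TAZ arrays 1, 2 and 3, against 8.90, 9.14 and 9.58 in siGFP arrays 1, 2 and 3. It had 8.69 in shYAP/TAZ and 8.77 in shLacZ. Its siRNA difference was -0.31 (SE 0.30; limma, adjusted p = 1.00), and -0.13 without siGFP 3, the array in which 6 of the 10 genes (Cldn1, Cldn3, Cldn4, Cldn7, Tjp1 and Ocln) had their highest value.

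Over the 10 genes, 8 were lower and 2 higher in the mean of the siYAP/TAZ arrays, where 53.6% of all genes were lower. The median log2 difference was -0.32, against -0.02 for all 19938 genes and -0.05 for the 8772 genes whose mean lay above background. None of the 10 passed the threshold of 0.05 on limma's adjusted p, none had an unadjusted p under 0.05 (0 of 10), and none had siRNA groups that did not overlap. Of all genes, 0% passed, 238 (1.19%) had an unadjusted p under 0.05, and 4.59% had groups that did not overlap (1.60% higher and 2.99% lower in siYAP/TAZ). With 3 arrays a group, the exact test cannot go below p = 0.1. The confidence intervals are wide, and those of Cldn2, Cldn4, Cldn7, Cldn8, Cldn15 and Ocln take in log2 differences beyond -1 as well as 0.

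**Figure D2:**
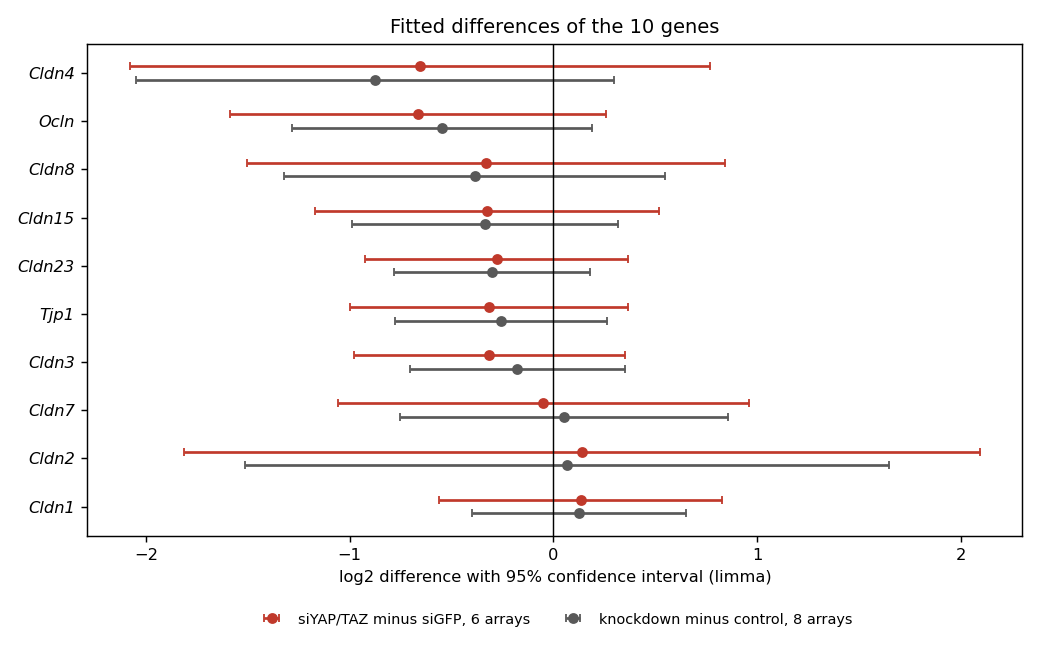
Log2 difference (horizontal axis) with 95% confidence interval from limma for each gene, for siYAP/TAZ minus siGFP (6 arrays) and for knockdown minus control over all 8 arrays with the arm as a covariate. Every interval covers 0, and that of Cldn2 is the widest in the siRNA arm, from -1.81 to 2.09.

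With all 8 arrays in a fit that holds the arm as a covariate, the spread was shared between the arms. The log2 difference of knockdown against control was -0.88 for Cldn4 (SE 0.52, 95% confidence interval -2.05 to 0.30), -0.55 for Ocln (SE 0.33, -1.28 to 0.19), -0.39 for Cldn8, -0.34 for Cldn15, -0.30 for Cldn23, -0.26 for Tjp1 and -0.18 for Cldn3. It was 0.13 for Cldn1, 0.07 for Cldn2 and 0.05 for Cldn7. The adjusted p was 1.00 for each of the 10 (limma), and 0% of all genes passed, while 533 (2.67%) had an unadjusted p under 0.05. The interaction of arm and knockdown, which asks whether the arms differ, had an unadjusted p under 0.05 for 0 of the 10 genes, against 0.356% of all genes, and the 1 array per group of the shRNA arm borrows its spread from the siRNA arm in that fit.

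The fits above do not use the assignment of controls. Pair by pair, 5 of the 10 genes were lower in all 4 knockdown arrays than in their assigned controls: Cldn4, Cldn8, Cldn23, Tjp1 and Ocln. Of all genes, 8.95% were lower in all 4 pairs, and of the 8772 genes with a mean above background 968 were. None of the 10 was higher in all 4 pairs, as 6.02% of all genes were. The size was uneven: Cldn8 differed by -0.02 and Cldn23 by -0.04 in siRNA pair 2, less than either gene's spread, whereas the smallest differences of Cldn4 and Ocln were -0.32 and -0.19. With arrays centred on the 75th percentile the count was 3, namely Cldn4, Tjp1 and Ocln, where 7.70% of all genes were lower in all 4 pairs, and those 3 stood lower in all 4 pairs under each of the 5 scalings and summaries tried. With the shRNA pair left out, 6 genes were lower in all 3 siRNA pairs, the same 5 and Cldn3, where 12.9% of all genes were. In the shRNA pair 1 of the 10 genes, Cldn4, was at least 1.5-fold lower, as were 8.45% of all genes, and 0 of 10 were at least 1.5-fold higher, as were 5.58%. The medians of the 10 genes were -0.43, -0.23 and -0.39 in siRNA pairs 1, 2 and 3 and -0.18 in the shRNA pair, against -0.02, 0.02, -0.05 and -0.02 for all genes. The enterocyte marker list, of 12 genes, had medians of -0.52, -0.43, 0.04 and -0.24 in the same pairs, and crypt base stem cell markers, of 10 genes, had -0.84, -1.93, -0.23 and -0.57. What these shifts contribute to the junction genes was not tested.

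**Figure D3:**
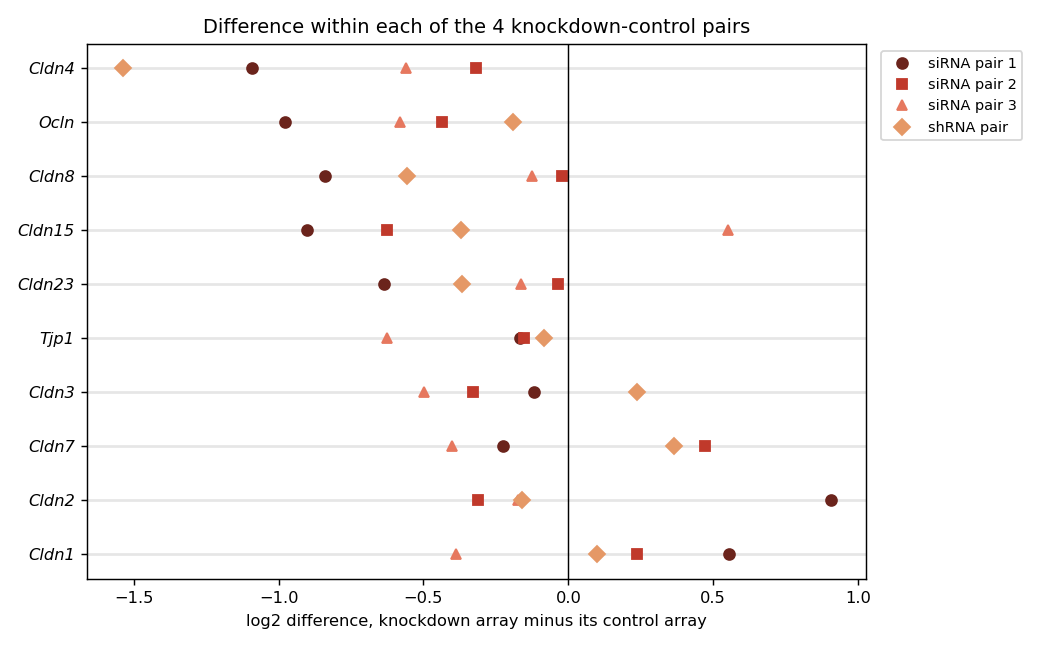
Log2 difference of each knockdown array from its assigned control array (horizontal axis), 4 pairs per gene, genes ordered by their mean over the pairs. Cldn4, Ocln, Cldn8, Cldn23 and Tjp1 lie under 0 in all 4 pairs, Cldn8 and Cldn23 by as little as -0.02 and -0.04.

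Levels were also set beside the makeup of the isolates. Over the 3 siYAP/TAZ arrays Cldn4 and Ocln were lowest in array 1, where the mean log2 level of the enterocyte markers was 10.53, against 11.22 and 12.10 in arrays 2 and 3. Over the 3 siGFP arrays both were lowest in array 1, with an enterocyte level of 10.31, against 11.95 and 11.77. On siGFP 1 the enterocyte markers Fabp1 (5.28) and Slc2a2 (4.87) lay under background. In siRNA pairs 1 and 3 the mean enterocyte level was higher in the knockdown array (10.53 against 10.31, 12.10 against 11.77). The median difference of the list was -0.52 in pair 1 and 0.04 in pair 3. Fabp1 and Slc2a2 had the largest rises of the list in both pairs, so the higher means do not describe the list as a whole. Cldn4 and Ocln were lower in both pairs. In siRNA pair 2 the mean enterocyte level, Cldn4 and Ocln were all lower. In the shRNA arm the enterocyte level was 11.18 in shYAP/TAZ and 11.81 in shLacZ. There Cldn4 had 7.23 in shYAP/TAZ and 8.77 in shLacZ, and Ocln had 8.30 and 8.49. The part of cell makeup in the Cldn4 and Ocln levels was not tested. Of the epithelial genes, Cdh1 and Vil1, the genes of E-cadherin and villin, were above background on all 8 arrays. Of the B and plasma cell markers 0 of 9 had a mean above background, but 6 of the 9 passed it on 2 arrays each, Ms4a1, Cd22 and Fcer2a among them. Their mean log2 level was 5.04, 7.97 and 6.90 on siYAP/TAZ arrays 1, 2 and 3.

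**Figure D4:**
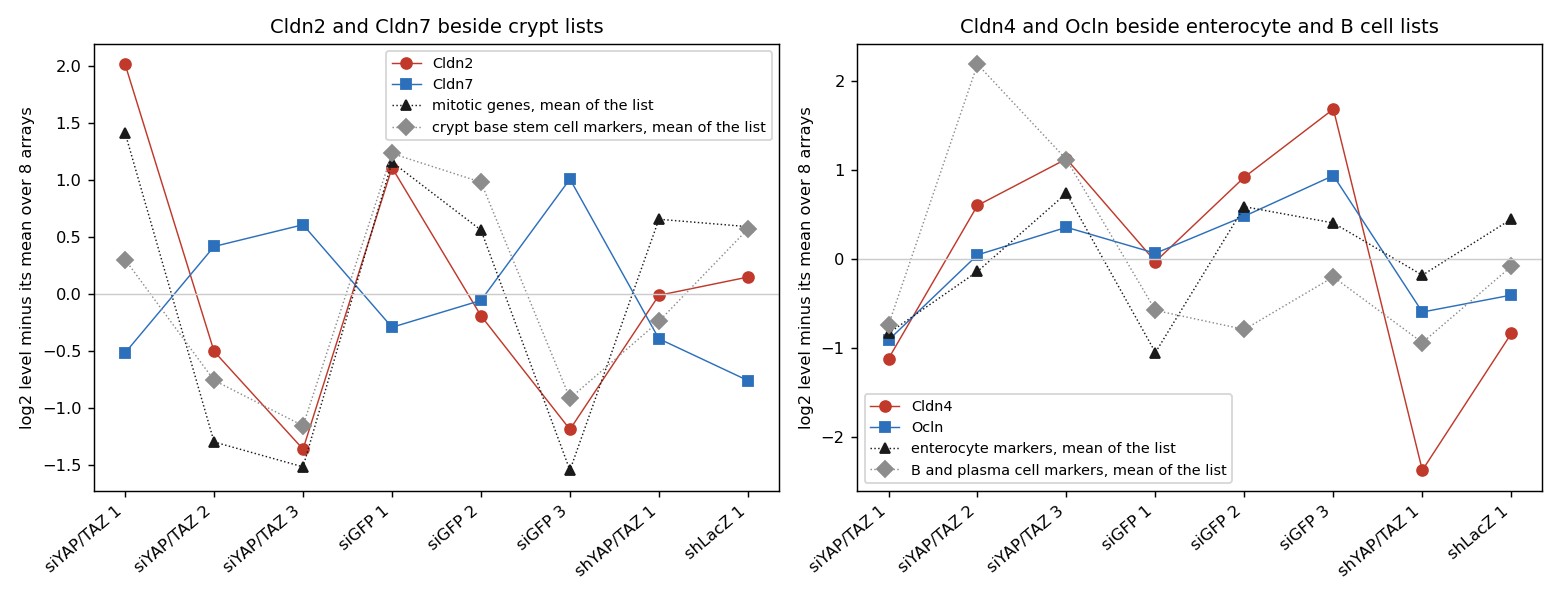
Log2 level minus its own mean over the 8 arrays (vertical axis) for Cldn2 and Cldn7 beside the mitotic and crypt stem cell lists (left) and for Cldn4 and Ocln beside the enterocyte and B cell lists (right), by array. Cldn2 and the mitotic list are both lowest on siYAP/TAZ 2, siYAP/TAZ 3 and siGFP 3, where Cldn7 is highest.

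The genes whose profile lay closest to Cldn2 and Cldn4, the most variable members, were found by the root mean square difference of log2 values, each gene centred on its mean over the 8 arrays, among 12465 genes. The dimmest 33% and genes with placeholder symbols or of receptor and immunoglobulin families were left out of the search. Closest to Cldn2 were Tlcd3a (0.19), Pir (0.22), Cks1b (0.28) and Dcun1d5 (0.29). Each of these lay under background on siYAP/TAZ 2, siYAP/TAZ 3 and siGFP 3, so the low end of their profiles is limited by background. Pir and Dcun1d5 were also under it on siGFP 2, shYAP/TAZ and shLacZ, and so above it only on the siRNA arrays numbered 1. Closest to Cldn4 were Samd9l (0.41), Trim30e-ps1 (0.41), Ifit1 (0.46) and Abcc2 (0.52). On the shYAP/TAZ array, where Cldn4 was lowest, Samd9l and Trim30e-ps1 lay under background. Trim30e-ps1 was also under it on siYAP/TAZ 1 and shLacZ. Cldn8 was the next most variable, but its values lay under background, so its nearest genes are not given. Cks1b had 8.71, 5.74 and 5.36 in siYAP/TAZ arrays 1, 2 and 3, against 7.73, 6.75 and 5.24 in siGFP arrays 1, 2 and 3. Since Cks1b was picked for its closeness to Cldn2, a shared order of arrays follows largely from that choice and is no separate result. Among the 10 genes themselves, Cldn1 and Tjp1 and Cldn3 and Tjp1 lay closest (0.23 each), followed by Cldn1 and Cldn3 (0.27) and Cldn23 and Tjp1 (0.28), which all varied little, and Cldn7 and Ocln came next (0.34).

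Other genes of the junction were read from lists. Of 15 other claudins, 10 were lower and 5 higher in the mean of the siYAP/TAZ arrays, with a median log2 difference of -0.10, and 3 had a mean above background. Of the 15, Cldn11, a claudin of myelin and testis, stood at -0.45 (SE 0.28) and Cldn18, known from stomach and lung, at -0.41 (SE 0.27). Both had groups that did not overlap, as for 2.99% of all genes in that direction. Cldn11 was above background on 0 and Cldn18 on 2 of the 8 arrays. Cldn10 stood at 0.24 (SE 0.63) and Cldn17 at -0.21 (SE 0.34), above background on 2 and 0 of the 8 arrays. Of 21 plaque and membrane partners, 12 were lower and 9 higher, with a median of -0.12. Magi3, a scaffold, stood at -0.54 (SE 0.42), Marveld2, which encodes tricellulin at corners of 3 cells, at -0.37 (SE 0.31) and Ybx3 at -0.29 (SE 0.91).

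Epcam encodes the adhesion protein that holds claudin-7 at the membrane. It had 11.67, 11.88 and 12.04 in siYAP/TAZ arrays 1, 2 and 3, against 12.17, 12.08 and 12.38 in siGFP arrays 1, 2 and 3, and 11.47 in shYAP/TAZ against 11.81 in shLacZ. Its siRNA groups did not overlap, as for 2.99% of all genes in that direction, and it was lower in all 4 pairs. The siRNA difference was -0.35 (SE 0.28; limma, adjusted p = 1.00). Magi3 and Marveld2 were also lower in all 4 pairs, which makes 3 of the 21, beside 8.95% of all genes.

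The polarity complexes that sit at the tight junction were higher in the median: 7 of 11 genes were higher and 4 lower in the mean of the siYAP/TAZ arrays, with a median of 0.19. Higher in all 4 pairs were 5 of the 11, beside 6.02% of all genes: Pard6b at 0.41 (SE 0.46), Mpp5, the gene of PALS1, at 0.28 (SE 0.43), Crb3, its membrane partner, at 0.28 (SE 0.30), and Pard6a and Pard3 at 0.27 and 0.19, the last 2 named after their values were seen. Prkcz, an atypical protein kinase C of the same complexes, ran the other way. It had 7.68, 7.94 and 7.91 in siYAP/TAZ arrays 1, 2 and 3, against 8.29, 8.15 and 8.42 in siGFP arrays 1, 2 and 3. Its groups did not overlap, as for 2.99% of all genes in that direction. Its siRNA difference was -0.45 (SE 0.27; limma, adjusted p = 1.00), and it was lower in all 4 pairs. No polarity gene passed the threshold, and 0 of 11 had an unadjusted p under 0.05.

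Of 14 adherens junction and desmosome genes, 10 were lower and 4 higher, with a median of -0.19. The list's medians in siRNA pairs 1, 2 and 3 were -0.33, 0.24 and -0.25, and 0.10 in the shRNA pair. Lower in all 4 pairs were 4 of the 14, Vcl, Perp and Nectin3 among them, beside 8.95% of all genes. Vcl, the gene of vinculin, which couples cadherin complexes to actin, stood at -0.73 (SE 0.35). Perp stood at -0.43 (SE 0.35) and Nectin3, an adhesion molecule, at -0.42 (SE 0.29). Dsp, the gene of desmoplakin, stood at -0.32 (SE 0.44) but was higher in siRNA pair 2 (0.08) and in the shRNA pair (0.04). Of 9 transcription factors that have been reported to act on claudin genes, 8 were lower in the mean, beside 53.6% of all genes. An unadjusted p under 0.05 (limma) was found for 1 of the 9, beside 1.19% of all genes. That was Vdr, the vitamin D receptor, with 9.53, 10.87 and 11.33 in siYAP/TAZ arrays 1, 2 and 3, against 11.61, 11.59 and 12.04 in siGFP arrays 1, 2 and 3, and 11.01 in shYAP/TAZ against 11.86 in shLacZ. Its groups did not overlap, as for 2.99% of all genes in that direction. The Vdr difference was -1.17 (SE 0.46; limma, unadjusted p = 0.0323, adjusted p = 1.00). Hnf4a stood at -0.38 (SE 0.30), Cdx2 at -0.36 (SE 0.49) and Klf4 at -0.32 (SE 0.38), and each was higher in the shRNA pair (0.48, 0.43 and 0.44).

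**Figure D5:**
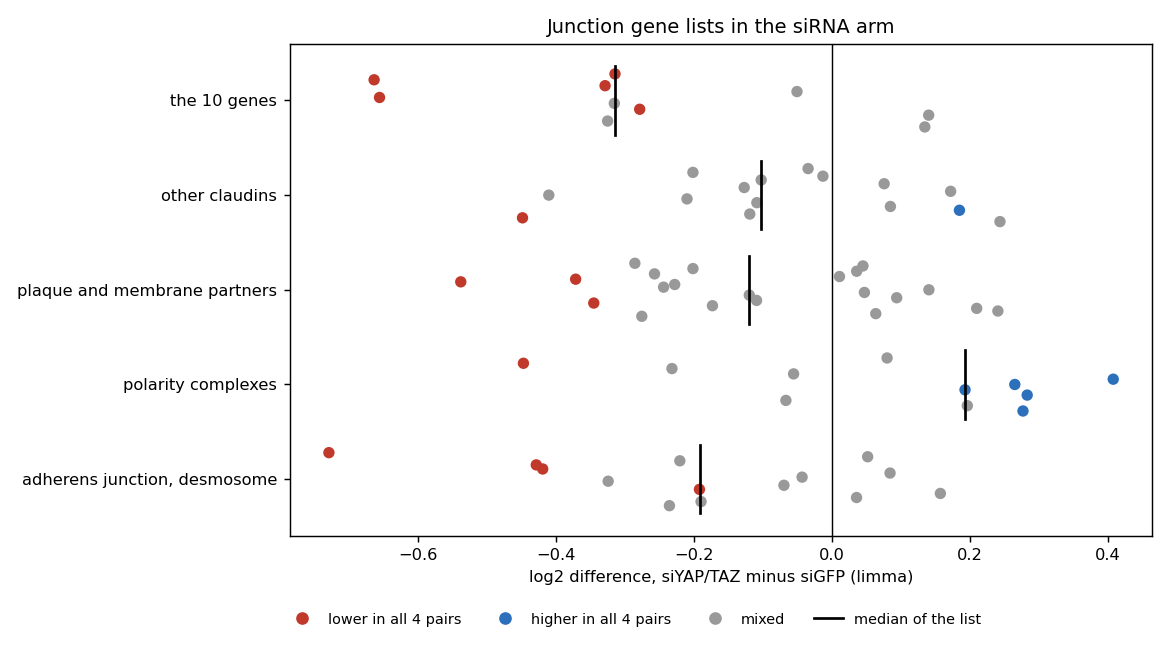
Log2 difference of siYAP/TAZ from siGFP (horizontal axis, limma) for each measured gene of 5 junction lists, with the median of each list as a black line and genes coloured by direction over the 4 pairs. The median is -0.32 for the 10 genes and 0.19 for the polarity complexes.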

How the data were processed

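Gene expression was measured on 8 Affymetrix arrays. For 28853 probe sets the submitters deposited linear intensity values, from biotinylated RNA copies per the labels' protocols. How the scans were corrected, summarised and scaled is not stated in the labels or headers used here. The lowest value is 16.0005, so a constant of about 16 may be included, which would shrink differences of dim genes. Intensities were quantile normalized and put on the log2 scale. Of the probe sets, 21789 name 1 gene, 1621 several (not used) and 5443 none listed; symbols were updated by Entrez identifier for 21698, from RefSeq's table of GRCm38.p6. Each of 19938 genes is represented by its brightest probe set (999 genes have more than 1). Dim genes were kept. The number of arrays limits the precision.

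Groups came from the titles and pairs from the descriptions. Differences were fitted with limma 3.58.1 in R 4.3.3 (lmFit, eBayes, Benjamini-Hochberg over all genes, threshold 0.05), which was tested on simulated data. Single genes also had an exact two-sided permutation test. Alternatives were 2 other scalings, 15 subtracted before log2, the mean of probe sets, the dimmest 33% left out, a trended robust prior, a replicate block and each array left out.

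The 10 genes and all lists were chosen with earlier results of these data known. Genes named from other lists are among the 4 with the largest siRNA difference in their list, except Pard3, Pard6a, Cdh1 and Vil1, named after their values were seen; not every such gene is printed. The 4 nearest profiles were sought for the 3 most variable members. Promoter windows come from RefSeq. Some listed genes were not analysed here.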

Additional observations from a re-analysis of the deposited data

Results flagged for a closer look

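Cldn3 differed in direction between the arms. It was lower in all 3 siRNA pairs, with a mean log2 difference of -0.32 for siYAP/TAZ against siGFP, and higher in the 1 shRNA pair, at 0.24. The difference between the arms was tested after these directions were seen, as an interaction of arm and knockdown over all 8 arrays, and was 0.55 (SE 0.59, 95% confidence interval -0.78 to 1.88; limma, unadjusted p = 0.369, adjusted p = 1.00). With 1 array left out, the Cldn3 difference lay between -0.41 and -0.16 in the siRNA arm and between -0.32 and -0.043 over all 8 arrays, with no change of sign. Opposite signs in the arms were not particular to Cldn3. Cldn2 had 0.14 in the siRNA arm and -0.16 in the shRNA pair, and Cldn7 had -0.05 and 0.37. The siRNA pairs of Cldn2 and Cldn7 were mixed in direction.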

How the results depend on the processing

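No member gene passed the threshold on the adjusted p under any alternative run. The smallest adjusted p of a member with 1 array left out was 0.714 in the siRNA arm (Cldn2) and 0.639 over all 8 arrays (Cldn8). The sign of Cldn7 in the siRNA arm turned to 0.0063 with arrays centred on the 75th percentile. The count of members lower in all 4 pairs was 3 under that centring, against 5, and with a pair left out it was 5 or 6 of 10 over the remaining 3 pairs, where 12.9% to 17.3% of all genes were. With 1 array left out, the siRNA differences ranged over -0.84 to 0.85 for Cldn2, -0.040 to 0.35 for Cldn1, -1.12 to 0.0050 for Cldn4, -0.71 to 0.22 for Cldn8 and -0.31 to 0.34 for Cldn7, and over all 8 arrays -0.64 to 0.55 for Cldn2 and -0.11 to 0.35 for Cldn7. Without siYAP/TAZ 1, limma called 13 genes in the siRNA arm, 11 higher and 2 lower, against 0 in all arrays, and 0 without any other 1 array. With 1 array left out the median of the members lay between -0.38 and -0.23, against -0.32 with all. With both siRNA arrays numbered 1 left out, chosen after seeing the data, 61 genes were called, 45 higher and 16 lower, no member among them, and Cldn2, Cldn1 and Cldn7 turned to -0.24, -0.074 and 0.036, and the median of the members was -0.17. The causes were not tested. The labels name a control for each knockdown array but no shared mouse, litter or day. The same-numbered siRNA arrays had correlated deviations from their group means in pairs 1 and 3 (r = 0.755 and 0.571 across genes) but not in pair 2 (-0.130). The differently numbered siYAP/TAZ 2 and siGFP 3 had r = 0.583, above that of pair 3, so these correlations do not single out the assigned pairs 2 and 3. The pairs are therefore used for description, and the assignment was left out of the main fits. With the replicate block, limma called 1 gene in the siRNA arm and 4 over all 8 arrays. In that block fit over 8 arrays Cldn4 stood at -0.88 (SE 0.24, unadjusted p = 0.0043, adjusted p = 0.353) and Ocln at -0.55 (SE 0.20, unadjusted p = 0.0228, adjusted p = 0.556). In the block fit of the siRNA arm Cldn4 stood at -0.66 (SE 0.28, unadjusted p = 0.038, adjusted p = 1.00) and Ocln at -0.66 (SE 0.27, unadjusted p = 0.0318, adjusted p = 1.00), with 95% intervals below 0. None of these passed the adjusted threshold. Genes near background, Cldn1, Cldn8 and Cldn23, are limited by signal over background.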

Other observations

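Cell type lists outside the junction gave these values in the siRNA arm, siYAP/TAZ against siGFP, with no gene of any list passing limma's adjusted p over all genes (0% of all genes passed). The 9 B and plasma cell markers were all higher on average in siYAP/TAZ; their median log2 difference was 1.5, with Cd22 (1.94) the largest. The B cell list's medians were 0.05, 3.06 and 1.39 in siRNA pairs 1, 2 and 3 and -0.78 in the shRNA pair. The 9 genes of the T cell list had a median of 0.28, with 6 higher and 3 lower in the mean. Ptprc, the largest at 1.12, is not specific to T cells, and Cd3e stood at 0.48 and Itgae at -0.44. The T cell list's medians were -0.57, -0.42 and 1.05 in siRNA pairs 1, 2 and 3 and -0.13 in the shRNA pair. The 10 crypt base stem cell markers were all lower, with a median of -0.89 (Olfm4 -1.76, Lgr5 -1.45), as were the 9 mitotic genes (-0.61) and the 6 Paneth cell markers (-0.71). In siRNA pairs 1, 2 and 3 and the shRNA pair, the mitotic medians were 0.20, -1.74, -0.06 and 0.09 and the Paneth medians -0.09, -1.73, 0.26 and -0.54, so pair 2 held the largest difference of both lists. The 7 goblet cell markers had a median of -0.35 (Galnt12 -0.73) and the 12 enterocyte markers one of -0.28 (Fabp1 1.30, Lct -0.92). Medians were -0.26 for 6 ileal genes (Cubn -2.85), 0.05 for 6 proximal genes, 0.02 for 6 colonic genes (Car4 0.99), -0.13 for 6 endothelial markers and 0.03 for 8 fibroblast and smooth muscle markers. Slc10a2, the ileal bile acid transporter, stood at 0.72, 4.43 and -4.30 in siRNA pairs 1, 2 and 3 and at 1.99 in the shRNA pair.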
